A study of Drosophila melanogaster with 3 samples.

Results

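The regions described here are the remote intergenic summits of a chromatin immunoprecipitation (ChIP-seq) experiment in Drosophila melanogaster. A peak was a member if its summit, the base of highest enrichment, lay outside every protein-coding gene and more than 5 kb from the nearest transcription start site (TSS) of a protein-coding gene. Of the 4934 peaks that the authors kept by the irreproducible discovery rate (IDR), a measure of how well ranks repeat between replicates, 437 met this rule, which is 8.86%. The choice among these peaks used position alone, so the rule did not use the signal of the members. The IDR list itself starts at a signal of 105.5, so weaker regions are missing from every class. The chromatin came from whole prepupae of mixed sex, labelled 24 hours, of a transgenic line that stably expresses CG9139 (Rabex-5) fused at its C-terminus to green fluorescent protein (GFP), and its fragments, sonicated to a range of 200 to 800 bp, were recovered with an antibody to GFP. There were 3 biological replicates in 1 group, with no second genotype, stage or treatment, so the comparisons below are between classes of regions. The labels do not give the promoter that drives the fusion, and whole animals mix the chromatin of all tissues. The deposited lists hold no read counts, so the depth behind each value is unknown, and SDs and p-values measure only the spread between these 3 replicates.

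The tagged protein, Rabex-5, activates the small GTPase Rab5 at endosomes by nucleotide exchange, and its zinc finger region has ubiquitin ligase activity. In flies, many genes for transcription factors and signals that pattern the imaginal discs, the larval tissues that form the adult body, are controlled by enhancers far from the promoter in long stretches without other genes. Such stretches also hold non-coding RNA genes, insulators and repeats, and a summit's position alone does not tell which of these it marks or which gene it acts on.

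To show what the strongest members look like, the summit base and 100 bases on either side are printed here for the strongest member of X, of 3L and of 3R, 5′ to 3′ in dm6 coordinates (sequence from RefSeq, Release 6), with the words GAGAG and CTCTC (the site of GAGA factor on either strand) in capitals. The first holds none of the 18 motifs searched, the second is a run of GAGA factor sites, and the third holds only a match to the Grainy head motif, which is not capitalised.
CG4004 to Paics, X:12751221-12751421, plus strand: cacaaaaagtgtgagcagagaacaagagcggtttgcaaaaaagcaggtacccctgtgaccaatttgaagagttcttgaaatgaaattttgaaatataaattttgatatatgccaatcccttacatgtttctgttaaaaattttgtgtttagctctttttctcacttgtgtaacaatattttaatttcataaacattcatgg
Ir68a to scyl, 3L:11246118-11246318, plus strand: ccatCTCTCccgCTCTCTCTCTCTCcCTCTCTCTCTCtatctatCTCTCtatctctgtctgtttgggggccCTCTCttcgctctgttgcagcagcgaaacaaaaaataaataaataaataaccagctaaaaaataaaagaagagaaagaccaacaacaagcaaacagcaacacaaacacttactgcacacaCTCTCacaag
Cyt-c1L to eEF1gamma, 3R:29214346-29214546, plus strand: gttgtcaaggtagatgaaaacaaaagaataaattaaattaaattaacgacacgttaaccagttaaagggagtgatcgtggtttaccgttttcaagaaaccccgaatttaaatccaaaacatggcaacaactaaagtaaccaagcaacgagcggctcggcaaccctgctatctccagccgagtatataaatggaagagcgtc

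The next 7 sequences are from the strongest members with the word CACTGAGA in their windows, each with 20 bases on either side, read on the strand that carries the word, with the word in capitals. They are shown because this word was the motif with the largest ratio between members and genomic windows among the 18 searched. The word was taken from an earlier pass over these data, so that rank partly restates its choice. A short run of A after the word is visible in most of them.
Wnt6 to Wnt10, 2L:7358113-7358160, plus strand: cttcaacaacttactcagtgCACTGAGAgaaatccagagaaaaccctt
CG7320 to CheA75a, 3L:18236083-18236130, minus strand: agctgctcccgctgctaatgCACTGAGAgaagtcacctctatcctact
Awh to Fie, 3L:3878973-3879020, minus strand: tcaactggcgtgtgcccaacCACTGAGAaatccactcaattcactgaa
CG33795 to CG33687, 3L:16181604-16181651, minus strand: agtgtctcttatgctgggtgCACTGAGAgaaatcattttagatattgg
CG11550 to CG42693, 3R:31698383-31698430, minus strand: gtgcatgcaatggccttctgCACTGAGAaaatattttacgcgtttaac
drl to CG31797, 2L:19226472-19226519, minus strand: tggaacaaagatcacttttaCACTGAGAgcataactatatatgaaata
Pex7 to hry, 3L:8668391-8668438, minus strand: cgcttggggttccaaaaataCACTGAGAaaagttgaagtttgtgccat

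Members were mostly of ordinary strength. Column 7 of the deposited IDR list, the authors' enrichment signal over a control alignment, ran from 105.6 to 1461 among the members, with a median of 161.9 and quartiles of 125.2 and 241.1. The median was 178.7 for the 467 intergenic peaks 0.5 to 5 kb from a TSS, 170.1 for the 1860 peaks within 500 bp of a TSS, 168.9 for the 1355 peaks inside genes 0.5 to 5 kb from a TSS and 158.9 for the 815 peaks deeper inside genes. A signal of 400 or more was reached by 32 members, or 7.32%, beside 10.5% of all IDR peaks. The members' upper range stopped short of that of deep genic peaks, whose strongest signal was 3054.

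The relative signal of a peak is its signal in a replicate over the median signal of IDR peaks there, so 1 is a typical IDR peak. The members' median relative signal was 0.962, 0.989 and 0.926 in replicates 1, 2 and 3, a mean of 0.959 ± 0.0314 (SD, n = 3). Over peaks listed in all 3 replicates, the members' median log2 relative signal minus that of all other peaks was -0.06, -0.03 and -0.13, a mean of -0.07 ± 0.05. Against the nearer intergenic peaks the difference was -0.12 ± 0.05, and against deep genic peaks it was 0.01 ± 0.05. The first 2 differences had the same sign in all 3 replicates, with p = 0.25 in an exact two-sided sign-flip test, the smallest value that 3 replicates allow. The difference from deep genic peaks changed sign between replicates and lay within their spread (p = 0.75, exact sign-flip test).

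Remote positions were rarer among strong candidates than among all candidates. Each replicate's relaxed list holds 30000 candidate regions, of which 14.2%, 13.1% and 15.2% were remote by the same rule. Among each replicate's 4934 strongest candidates the share was 8.82%, 8.31% and 9.10%. The difference was -5.42 ± 0.679 percentage points (SD, n = 3), below 0 in 3 of 3 replicates (p = 0.25, exact sign-flip test). In the list from pooled reads, 9.32% of 4688 remote candidates were in the IDR list, beside a background of 16.4% of all 30000. The share was 12.3% for nearer intergenic candidates, 11.2% for deep genic ones and 30.5% for those within 500 bp of a TSS.

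The IDR list was made for ranks that repeat between replicates, so recurrence is in part built in. A candidate overlapped 432 of the 437 members, or 98.9%, in all 3 replicates, beside 96.8% of all IDR peaks. Of the members 240, or 54.9%, overlapped one of the strongest candidates in all 3, beside a background of 58.0% of all IDR peaks. This counts any overlapping candidate, which can be that of a neighbouring summit. With only the candidate of nearest summit, an alternative chosen after seeing the data, it was 223 members, or 51.0%, beside a background of 52.5%. The limma test over all 4777 IDR peaks listed in every replicate called 67 of the 432 members, or 15.5%, above the typical IDR peak at an adjusted p of 0.05, beside a background of 17.2%. It called 14, or 3.24%, below it, beside a background of 2.2%. The 67 lay between 0.76 and 2.90 on the log2 scale, with a median of 1.13. Leaving out replicate 2 reduced the 67 to 24 and the 14 to 1. Leaving out replicate 1 raised the 14 to 29, and limma with a mean-variance trend called 0 below.

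The strongest member lay at position 12751321 of X between CG4004 and Paics, which encodes an enzyme of purine synthesis. Its signal was 1461 and its relative signal 9.80, 6.63 and 6.35, highest in replicate 1. A second member of the same gap, at 12752336, had 7.28, 4.13 and 4.95. Both lie in the gene of the non-coding RNA Vinr, 546 and 469 bp from the nearest TSS of any biotype, so they are remote from protein-coding starts only.

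The next was 6089 bp from scyl, which encodes a stress-induced inhibitor of TOR signalling, in the gap shared with Ir68a, an ionotropic receptor gene. This window of GAGA factor sites, printed above, had a signal of 1264 and a relative signal of 6.59, 8.65 and 6.70. Its summit was 735 bp from the nearest TSS of any biotype. On the other side of scyl, a member at 11261606 had 3.75, 3.14 and 2.22, so both flanking gaps of this gene held members of the leading 15.

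Another member lay between CG13323 and Su(z)2, which encodes a protein related to a subunit of Polycomb repressive complex 1, and had 6.98, 6.41 and 6.93, with the replicates close together. The strongest member between RYBP, whose product binds Polycomb proteins, and Ppa, an F-box protein gene, had 8.15, 4.82 and 4.01. The member between CG13321 and Psc, the gene of a subunit of that complex, had 3.45, 3.08 and 2.51. No list of Polycomb genes was counted, so nothing is read from these names together.

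A member between Cyt-c1L, which encodes a cytochrome c1-like protein, and eEF1gamma, which encodes a translation elongation factor subunit, had 8.13, 5.12 and 6.32. It was 116 bp from the nearest TSS of any biotype. The member between CG9300 and Shal, a voltage-gated potassium channel gene, had 4.54, 3.78 and 4.18 and lay 386 bp from such a TSS. The member between Wnt6 and Wnt10, which encode Wnt ligands, had 3.77, 4.42 and 4.05, and no TSS of any kind lay within 5186 bp of it. These 3 members kept values of at least 3.77 in every replicate.

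The remaining members of the 15 lay beside Eip93F, heca and in the longest gap with members. Eip93F encodes an ecdysone-induced transcription factor of metamorphosis, and 2 members in the gap it shares with Qsox2 had 4.28, 2.28 and 3.45 and 3.81, 2.82 and 2.60. The strongest member between CG18404 and heca, the headcase gene, had 3.07, 3.31 and 3.24, with the smallest SD of the 15, 0.121. Since the 15 were picked for high signal and for strength in all 3 replicates, their values are a description: the mean log2 relative signal ran from 1.57 to 2.90. Every replicate value of the 15 lay above 2, as the plot of the 15 members by replicate shows.

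**Figure D1:**
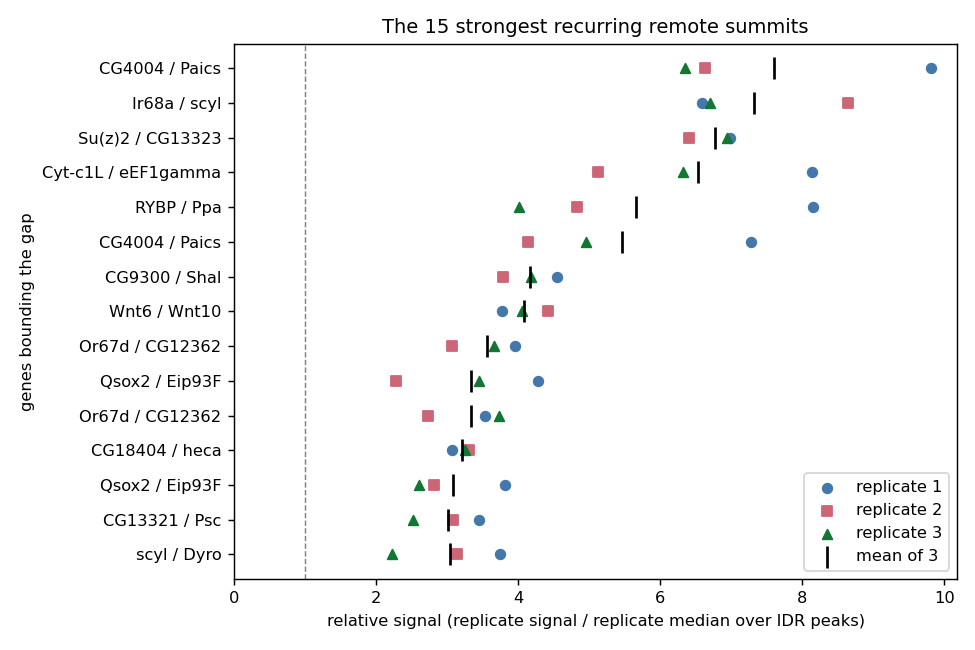
Relative signal (horizontal axis, signal over the median of IDR peaks in the same replicate) of the 15 members of highest signal that were among the strongest candidates in all 3 replicates, named by the genes bounding their gap. Coloured points are replicates, black bars their mean and the dashed line a typical IDR peak at 1; the lowest point is 2.22 and the highest 9.80.

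Distance to the nearest protein-coding TSS had a median of 11117 bp, with quartiles of 7451 and 18524 bp and a maximum of 60511 bp. Beyond 10 kb lay 246 members, beyond 20 kb 96 and beyond 40 kb 13. Median signal was lower in the farther classes. The median signal was 172.7 for the 191 members up to 10 kb away, 167.0 for the 150 at 10 to 20 kb, 144.2 for the 83 at 20 to 40 kb and 129.3 for the 13 beyond. The median relative signal was 0.996 ± 0.0494 in the first class and 0.996 ± 0.0594 at 10 to 20 kb (SD over 3 replicates). It was 0.837 ± 0.0648 at 20 to 40 kb and 0.812 ± 0.126 beyond, so it was not lower up to 20 kb. The share among the strongest candidates of all 3 replicates was 61.3%, 56.0%, 41.0% and 38.5% in the same order, and 57.6%, 52.7%, 37.3% and 23.1% by the candidate of nearest summit. The share of pooled candidates that reached the IDR list did not follow that order, at 9.21%, 8.79%, 10.5% and 11.4%.

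The farthest member was also the strongest beyond 40 kb. It lay 60511 bp from CG12362, in the 138193 bp gap that begins at Or67d, a pheromone receptor gene, and had a signal of 640.7 and a relative signal of 3.95, 3.07 and 3.65. It was 11712 bp from any TSS and inside the gene of the non-coding RNA CR46006.

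At the 5 kb limit, the 3 members nearest inside were 5003, 5004 and 5044 bp from a TSS. The first was near Naa15-16 with a signal of 365.0, the second is the strongest member described above and the third was near hid with 348.6. The 3 intergenic summits nearest outside, at 4977, 4979 and 4982 bp, were near CG13481, Tollo and CG14147 with signals of 288.0, 154.3 and 159.1.

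A gap is the stretch between neighbouring protein-coding gene bodies. Sequence that meets the rule, called eligible sequence, made up 25.8 Mb or 19.3% of the known bases of 6 chromosome arms, in 1460 gaps. Members occurred at 1.69 per 100 kb of it, and all IDR peaks at 3.69 per 100 kb of the arms. They lay in 189 of the gaps, of which 100 held 1, 33 held 2 and 56 held 3 or more. The 23 gaps with 5 or more held 163 members, or 37.3%. The gaps of members ranged from 520 to 138193 bp, with a median over members of 33567 bp.

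Gene deserts, taken as gaps of 30 kb or more, held 242 members, or 55.4%, in 69.0% of the eligible sequence. The density was 2.96 members per 100 kb in gaps under 10 kb, 2.30 at 10 to 20 kb, 2.46 at 20 to 30 kb, 2.48 at 30 to 50 kb and 1.93 at 50 to 100 kb. It was 0.223 per 100 kb in the 37 gaps of 100 kb or more, where 17 members lay in only 3 gaps and 7.62 Mb of eligible sequence. Candidates from the pooled reads were also sparse there, at 2.10 per 100 kb beside 20.4 to 26.9 in the shorter classes. The soft-masked, repeat-derived share of the eligible sequence was 43.5% in these 37 gaps and 23.7% in shorter gaps. Its part in the low density was not tested. Among remote candidates, the share in the IDR list was 10.6% in the longest class and 8.63% to 11.4% in the others.

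**Figure D2:**
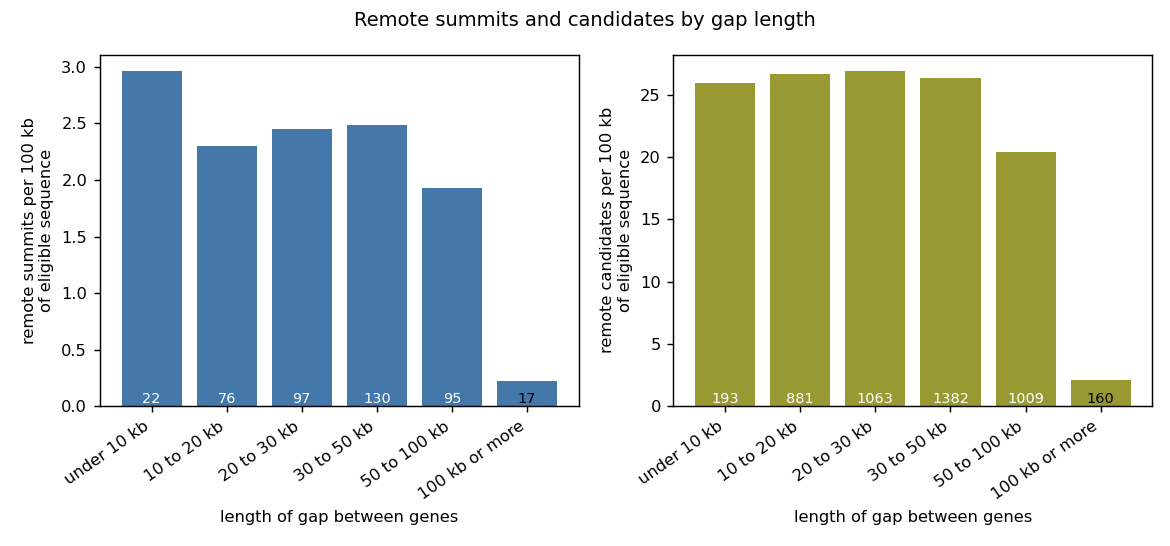
Members (left) and remote candidates from pooled reads (right) per 100 kb of eligible sequence, by length of the gap between protein-coding genes; numbers in the bars are members and candidates. Density is 1.93 to 2.96 members per 100 kb up to 100 kb and 0.223 in longer gaps, where candidates fall to 2.10.

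Many members had another close by. With neighbours in the same gap linked at up to 10 kb, 295 members, or 67.5%, fell into 88 clusters of at least 2, and 142 stood alone. The 16 clusters of 5 or more held 116 members, and the largest held 13. Successive members of a gap were a median of 2612 bp apart, with quartiles of 1148 and 6051 bp, and the closest were 199 bp apart. Of 248 such pairs 56 were within 1 kb. Some close pairs are overlapping regions that match the same candidate of a replicate, and merging overlapping regions left 415 members. For 282 members, or 64.5%, the nearest other IDR summit of any class was within 5 kb, and for 48 it was beyond 20 kb. No such shares for the other classes of peaks are given here, so this closeness is not shown to be particular to the members.

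The gap with the most members, 14 in 75.0 kb of 3L, lies between NijA, which encodes ninjurin A, a cell-surface protein, and CG43245. Overlapping regions count apart here, as with the summits at 10737431 and 10737631, 10738797 and 10739000, 10739802 and 10740004, and 10760309 and 10760509. The first rank of this gap rests on counting them apart. All 14 lay within 34.3 kb, and 13 of them overlapped one of the strongest candidates in all 3 replicates, 10 by the candidate of nearest summit. Their signal ran from 109.3 to 420.4 with a median of 254.6. The strongest, 11616 bp from CG43245, had a relative signal of 2.91, 2.73 and 1.69.

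The 48.5 kb gap between CG7320 and CheA75a, a chemosensory protein gene, held 13 members, 10 of them overlapping one of the strongest candidates in all 3 replicates and 8 by the candidate of nearest summit. Its strongest summit carries the word CACTGAGA printed above and had 2.70, 2.34 and 2.94. The 138 kb gap from Or67d to CG12362 held 12 members, of which 5 did so by any overlap and 4 by nearest summit. Beside the farthest member described above, another at 10365072 had 3.54, 2.73 and 3.74, while the median signal of the 12 was only 143.4. The member at 10365072 lay 156 bp from the nearest TSS of any biotype. It was inside the gene of the non-coding RNA CR46006, which held 8 of the 12.

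The 50.1 kb gap between mid, a T-box factor gene, and CG14020 held 8 members. They were weaker, with signals from 109.2 to 268.5, and 3 did so by either rule. A further 3 gaps held 8 members each. The gap between CG18404 and heca was short, at 23.8 kb, and the median signal of its members was 288.9. The gap between Ids and sty, which encodes the EGFR and FGF pathway inhibitor Sprouty, was 21.1 kb long. It was led by a member with 3.31, 2.49 and 2.21, whose nearest TSS was that of Ids. The gap between Qsox2 and Eip93F was 33.6 kb long.

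**Figure D3:**
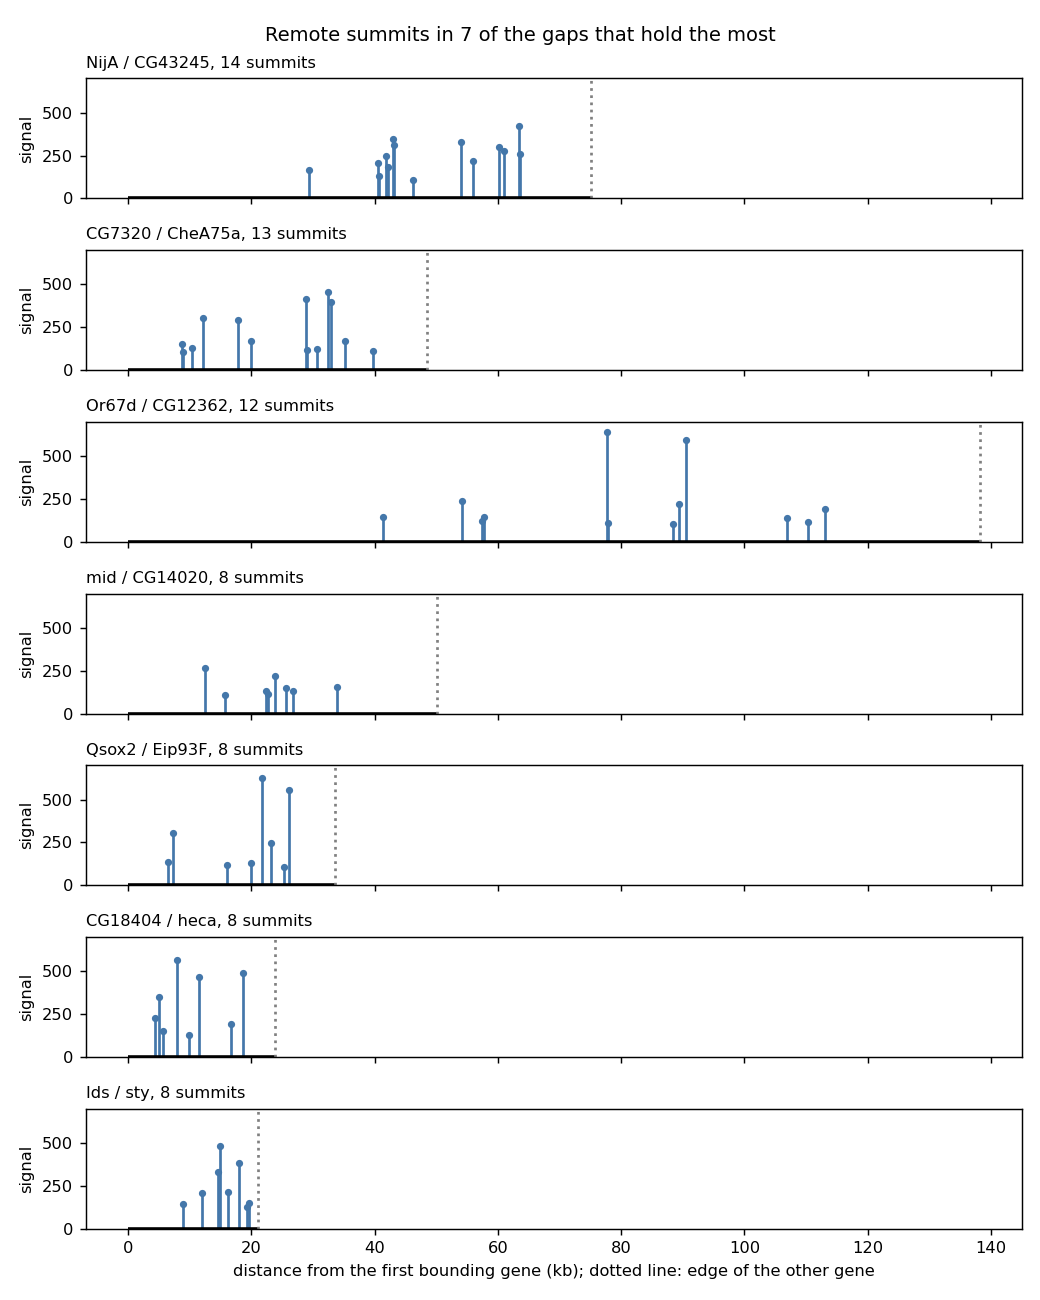
Members of 7 of the gaps that hold the most, by distance from the edge of the first bounding gene (kb, horizontal axis) and authors' signal in the IDR list (vertical axis); each stem is 1 summit and the dotted line is the edge of the second gene. Summits form groups within these gaps, which were picked for their counts, and the Or67d gap holds 2 tall summits of 640.7 and 593.1.

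Chromosome arm 3L held 174 members, or 39.8%, with 26.1% of the eligible sequence and 21.1% of the other IDR peaks. The density was 2.59 per 100 kb on 3L and 1.38 on the other arms together, from 0.538 on chromosome 4 with 1 member to 1.60 on 2L. The 4 gaps of most members on 3L hold 50. Without them, an alternative chosen after seeing the data, 3L had 1.92 per 100 kb. Of each replicate's strongest remote candidates, 40.9%, 40.5% and 38.8% were on 3L, beside 31.5%, 31.3% and 28.1% of all remote candidates. The difference was 9.75 ± 0.786 percentage points, above 0 in 3 of 3 replicates (p = 0.25, exact sign-flip test). The median signal on 3L was 163.2, close to the members' median.

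**Figure D4:**
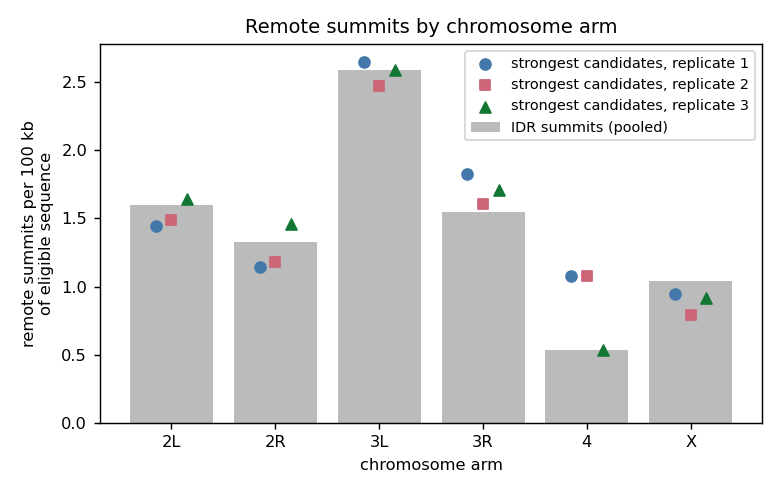
Remote summits per 100 kb of eligible sequence (vertical axis) by chromosome arm; grey bars are the 437 members and coloured points the remote regions among each replicate's 4934 strongest candidates. Points of all 3 replicates are higher on 3L than on any other arm.

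With respect to the gene bodies, members had a median distance of 9070 bp to the nearest edge. The 75 members within 5 kb of a gene body all lay at a 3′ edge, which the rule largely fixes since annotated starts are excluded up to 5 kb. Over all members, 242 were nearest a 3′ edge and 195 a 5′ edge. The 242 include those 75, so the rule itself favours the 3′ edge in these totals. Gaps between divergent genes held 1.94 members per 100 kb, gaps between convergent genes 1.71 and gaps between genes in tandem 1.84. The 1.85 Mb between the outermost genes and the arm ends held 0 members.

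Non-coding genes covered 64 members, or 14.6%, and 42 lay within 500 bp of a TSS of any biotype. With all annotated genes in place of protein-coding genes, 236 of the 437 remained remote. The non-coding RNA CR46006 held 8 members and CR32773 held 5. The host RNA of the let-7 complex, which carries microRNAs with roles in metamorphic timing, held 3 members of modest signal, the strongest at 167.0 with a relative signal of 1.06, 1.19 and 0.900. These hosts were named after their counts were seen. No member lay in an annotated transposon. The share of eligible sequence inside non-coding genes, near their starts or inside transposons is not given here. These counts are therefore descriptions, and enrichment or avoidance was not tested.

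The flanking genes of a member are the protein-coding genes that bound its gap, however far away they lie. There were 355, which is the background of 14.8% of the 2400 genes that bound a gap with eligible sequence. Among 18 gene lists, the one with the most flanking genes was imaginal disc patterning, which also had the most genes that bound such a gap. Of its 57 genes that bound such a gap, 32, or 56.1%, flanked a member. The share was alike in the small nuclear receptor list, at 57.1% or 4 of 7. These 32 genes share gaps: they bound 30 gaps with 60 members. List genes had longer gaps, with a median of 27.0 kb for the longest gap of a gene, beside 15.1 kb for all 2400. Among genes that bound a gap of 20 to 100 kb, a restriction chosen after seeing the data, 24 of 35 list genes, or 68.6%, flanked a member in such a gap, beside 233 of 863, or 27.0%, of all genes. Under the same restriction the share was 5 of 6 in the EGFR and FGF list, 3 of 4 in the ecdysone and nuclear receptor lists, 2 of 2 in the JNK, JAK-STAT and immune list and 1 of 1 in the Dpp list. It was 0 of 4 in the Wnt list, 0 of 3 in the apoptosis list, 0 of 5 for ribosomal proteins and 0 of 1 for cuticle proteins. The remaining lists had 16.7% to 33.3%, or no gene in such a gap.

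The members in the gaps of these patterning genes were of low signal, with a median of 146.7. The strongest was 2272 bp from lz, which encodes the Runx factor Lozenge of eye and blood cell development, with 2.86, 1.94 and 1.69. The member nearest in strength lay 7359 bp from hh, the Hedgehog ligand gene, and nearer to unk at the other end of the gap. It had 2.14, 2.22 and 1.44. The member 5267 bp from ptc, the Hedgehog receptor gene, had 2.58, 1.32 and 1.87. The member 3877 bp from elB, a zinc finger gene of leg and tracheal development, had 2.11, 1.17 and 1.48. Its nearest TSS was that of ppk, at the other end of the gap. All 4 were above 1 in every replicate.

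Signalling lists were smaller. In the EGFR and FGF list 5 of 10 genes flanked a member, namely sty, described above, the EGFR inhibitor gene kek1, the FGF ligand genes pyr and ths, which share a gap, and the EGFR ligand gene vn, named beyond the first 4. The leading member beside kek1 had 1.32, 1.90 and 0.804, and the strongest of the 3 members between pyr and ths had 1.01, 0.993 and 0.880. In the Wnt list 4 of 10 flanked a member: Wnt6 and Wnt10, described above, wg, the Wingless ligand gene, and dally, a heparan sulphate proteoglycan gene. The member 5681 bp from dally had 2.56, 2.17 and 1.50, and the leading member beside wg had 1.57, 0.967 and 1.02. The nearest TSS to this wg member was that of Wnt6. The JNK, JAK-STAT and immune list had 3 of 7. These were kay, the Fos gene, with 1.88, 1.34 and 0.397, and the cytokine genes upd1 and upd3 on either side of a member with 0.683, 0.370 and 0.812. The kay member lay 8516 bp from that gene and nearer to yata at the other end of the gap. Replicates of the kay and upd members lay on both sides of 1 or below it.

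Among genes of ecdysone response, 3 of 9 flanked a member: Eip93F, described above, chinmo, a juvenile-stage transcription factor gene, with 1.29, 1.43 and 0.805, and Eip75B, an ecdysone-induced nuclear receptor gene, with 1.11, 0.505 and 0.762. The Eip75B member lay 24325 bp from that gene, and its nearest TSS was that of CG5290. Of the nuclear receptor list 4 of 7 genes flanked a member. The member 9949 bp from tll, the Tailless receptor gene, lay nearer to CG15544 at the other end of the gap and had 1.81, 1.17 and 1.06. The leading member in a gap of kni, 43120 bp from that gene, had 0.945, 0.608 and 0.802. That in a gap of knrl, 47595 bp from that gene, had 0.603, 0.817 and 0.851. Both were below 1 in every replicate, and both lay nearer to the gene at the other end of the gap. The kni and knrl genes are also in the patterning list and Eip75B in the ecdysone list. In the same way, wg of the Wnt list and dpp of the Dpp list are also in the patterning list.

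Other developmental lists had a single flanking gene each. Antp did so among 7 Hox genes, hry, the hairy gene, among 8 proneural and HLH genes, Ser, a Notch ligand gene, among 8 of the Notch pathway and dpp, a BMP ligand gene, among 7 of its pathway. The leading member beside hry carries CACTGAGA and had 1.10, 2.48 and 2.06. Among 4 apoptosis genes hid, a cell death activator, did so, and its strongest flanking member had 2.17, 2.05 and 2.59. Among 6 heat shock and stress genes it was scyl.

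Neuronal lists did so at shares near or under the background of all genes. Of 33 axon guidance and adhesion genes 4 flanked a member, or 12.1%, namely Ten-m, caps, trn and Con. Ten-m, a teneurin gene, had 1.38, 1.25 and 1.55. Of 23 ion channel and neurotransmission genes 2 did, or 8.70%: Shal, described above, and GluRIB, a glutamate receptor gene. None of 4 Rab and endocytosis, 2 circadian, 17 cuticle protein or 11 cytosolic ribosomal protein genes that could flank a member did so.

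Flanking genes also had summits at their own promoters at times. Of the 355, 75 or 21.1% had an IDR summit within 500 bp of a TSS, beside 255 of the 2045 other genes that bound eligible gaps, or 12.5%, and a background of 13.2% of all 13945 protein-coding genes. Among the named genes Eip93F, chinmo, Eip75B, ptc, elB, dally, kek1, kay, hid and scyl were examples with such a summit, while Wnt6, Wnt10, lz, hh, sty, tll and Shal did not. For 100 members, or 22.9%, the gene of the nearest TSS had such a summit. The lists were chosen with earlier results of these data known, and the counts are descriptions.

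The sequence around the members was AT-rich. Windows of 100 bp to either side of the summit had a median GC content of 35.8%, beside 41.3% for 127578 windows of the same length laid end to end over all eligible sequence and 36.3% for the nearer intergenic peaks. The median soft-masked share was 20.4% in member windows and 18.9% in the windows of eligible sequence.

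The word CACTGAGA, taken from an earlier pass over these data and so not independent support, occurred on either strand in 35 member windows, or 8.01%. It was in 0.635% of the windows of eligible sequence, a ratio of 12.6 with an exact 95% interval of 8.89 to 17.3 that covers counting error in the members only. At 1000 bp to one side of the same summits the share was 1.14%. Among all 4934 IDR peaks 167 had it, or 3.38%. The share was 4.79% in deep genic peaks, 3.43% in nearer intergenic peaks and 1.72% within 500 bp of a TSS.

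In each replicate, 7.36%, 7.56% and 7.35% of the strongest remote candidates had the word, beside 2.09%, 2.25% and 1.87% of the other remote candidates. The difference was 5.35 ± 0.114 percentage points (SD, n = 3), above 0 in 3 of 3 replicates (p = 0.25, exact sign-flip test). Members with the word had a median signal of 206.4, beside 160.1 for those without. Their median relative signal was 1.10, 1.17 and 1.10, beside 0.951, 0.971 and 0.910. Of the 35, 25 or 71.4% were among the strongest candidates of all 3 replicates, beside 53.5% of members without the word. Since the word was taken from these same data, these comparisons by strength partly restate its choice and are descriptions.

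**Figure D5:**
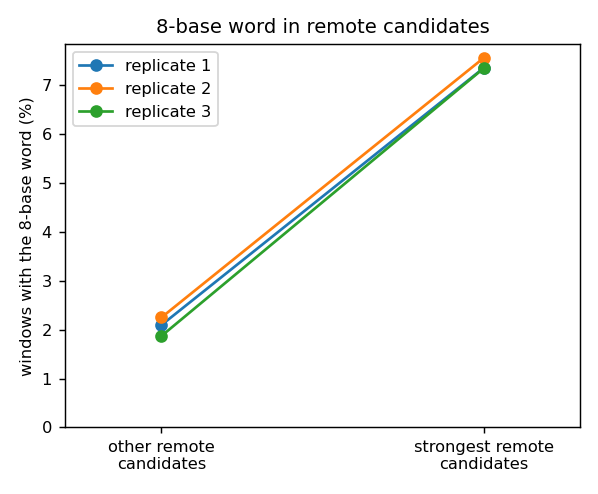
Share of windows (100 bp to either side of the summit) with the 8-base word (vertical axis, percent) among the strongest remote candidates of each replicate and among its other remote candidates; each line is 1 replicate. The share is 7.35% to 7.56% in the strongest and 1.87% to 2.25% in the others; the word was chosen from these same data.

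The 39 occurrences lay at distinct positions in 32 gaps, 19 on the plus and 20 on the minus strand, and 15 of the 35 windows were on 3L. The median distance of the word from the summit was 57.5 bp. Most words on the plus strand lay before the summit in dm6 coordinates, and most on the minus strand lay after it. Some windows held a word on each side, as between Cyp6t1 and GCS2alpha at -75.5 bp (plus) and 86.5 bp (minus). Counted from the first base of the word, the base at position 9 was G in 51.3% of occurrences and A in most others, and positions 10 and 11 were A in 89.7% each and position 12 in 74.4%. Before the word no base was fixed to that degree, the highest share being 56.4% for T at position -2. The sequences printed above show this, with gaaat after the word in some and unlike bases farther out.

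The other motifs were nearer to the level of eligible sequence. GAGA factor sites (GAGAG) occurred in 113 member windows, or 25.9%, beside 21.5% of windows of eligible sequence, 26.1% of nearer intergenic peaks and 41.1% of peaks within 500 bp of a TSS. The word CACTGAGA followed by G contains GAGAG, and without such overlaps 98 members, or 22.4%, had a GAGA factor site. The longer GAGAGAG, which contains GAGAG, was in 3.89% of members and 2.26% of eligible windows. The other peaks had it more often, with 7.71% of nearer intergenic peaks, 7.12% of deep genic peaks and 10.4% of all IDR peaks. The BEAF-32 word CGATA was in 13.5% of members, 20.4% of eligible windows and 19.2% of windows at 1000 bp to one side. In the replicates CGATA was in 16.1%, 13.2% and 15.1% of the strongest remote candidates and 16.2%, 17.6% and 17.8% of the others, so in replicate 1 the shares were nearly equal. The DREF word TATCGATA, which contains CGATA, was in 0 of 437 members, which allows a share of up to 0.686% (3 counts of 437, a one-sided limit for counting error only), and in 0.450% of eligible windows.

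The EcR/usp half-site AGGTCA was in 3.43% of members and 5.22% of eligible windows, AP-1 (TGANTCA) in 4.58% and 3.45%, and Grainy head (AACNGGTT) in 2.29% and 1.59%. The Myc E-box CACGTG was in 2.52% of members and 2.10% of eligible windows, the Twist E-box CATATG in 6.86% and 5.53%, and the proneural E-box CAGCTG in 6.18% and 6.67%. GATA sites (AGATAA) were in 11.9% and 11.3%, homeodomain sites (TAATTA) in 14.4% and 13.5%, Zelda sites (CAGGTAG) in 1.14% and 0.869% and Su(H) sites (GTGGGAA) in 2.06% and 2.52%. STAT sites (TTCNNNGAA) were in 4.58% and 6.12%, heat shock elements (GAANNTTC) in 5.49% and 6.20%, and Motif 1 (GGTCACAC) in 0.458% and 0.270%. For these 13 motifs the exact 95% interval of the ratio, which covers counting error in the members only, included 1. It excluded 1 for GAGAG (1.02 to 1.41), GAGAGAG (1.01 to 2.73) and CGATA (0.511 to 0.835). The intervals are not adjusted for the 18 motifs searched. Each motif was sought on both strands, and a match is a description of letters, not of a bound factor.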

How the data were processed

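Anti-GFP ChIP-seq was analysed from the dm6 lists of 3 biological replicates of whole prepupae that form 1 group. The authors set each replicate, and the pool of all 3, against 1 control alignment to make relaxed lists of 30000 regions and applied an IDR threshold, per the text notes they deposited. The signal is the authors' enrichment value relative to that control, as deposited. Its scale can change with depth, so it was used within a list or as a ratio to a list's median. Not given in the sources used here are the aligner, the caller, the IDR threshold and what the control was made from. Animals lacking the tag were not analysed here. No list holds read counts, so no depth or floor per sample is given.

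Summits were placed on Ensembl release 115 genes and the soft-masked Release 6 genome of RefSeq, the same assembly as dm6, with Python 3.11.15, numpy 2.4.6, pandas 2.3.3 and scipy 1.17.1, and drawn with matplotlib 3.10.9. An IDR peak took, in each replicate, the overlapping candidate (at least 1 bp) with the nearest summit. limma 3.58.1 in R 4.3.3 tested the mean log2 relative signal of every IDR peak listed in all 3 replicates against 0, with no covariate and Benjamini-Hochberg adjustment over all peaks at 5%, and was tested on simulated data. Replicate differences were tested by exact two-sided sign flips. Exact binomial (Clopper-Pearson) intervals cover counting error only. The strongest candidates of a replicate were its 4934 of highest signal. Motifs were sought within 100 bp of the summit.

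Members, the 18 gene lists (446 of 450 symbols matched) and the motifs were chosen with earlier results of these data known. Genes were named if they bound the gap of the 15 strongest recurring members, of the 5 gaps with most members (ties by length), or were nearest to the 3 summits on either side of the 5 kb limit, with up to 4 of each list by signal. Names beyond this rule were chosen after seeing values. One gap and its genes are not reported here. Alternatives were other distance limits, gene sets, gap and link lengths, windows, fits, and leaving out each replicate. 4 alternatives were chosen after seeing the data: the candidate of nearest summit for strength, gaps under 100 kb for motifs, 3L without 4 gaps, and genes of gaps of 20 to 100 kb.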

Additional observations from a re-analysis of the deposited data

How the results depend on the processing

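The number of members was 672 at a limit of 2 kb, 246 at 10 kb, 236 with all annotated genes and 205 among peaks above the median signal. Leaving out a replicate, which kept members among the strongest candidates of both others and so could only lower the counts, gave 277 to 285 members, 145 to 147 in gaps of 30 kb or more and 165 to 175 with another within 10 kb. With deserts from 50 kb, 112 members lay in them, and with all annotated genes 84 did and 140 had another within 10 kb. Members above the typical IDR peak (67) numbered 33 beyond 10 kb, 28 among windows under 20% soft-masked and 24 to 53 without a replicate. Members below it (14) numbered 63 with the candidate of highest signal in place of the nearest summit, 0 with limma's trend, 8 beyond 10 kb, 4 under 20% soft-masked and 1 to 29 without a replicate; with trend 82 were above it. Members above the median signal were flanked by 218 genes. The ratio for CACTGAGA was 8.02 in windows of 50 bp to either side, 7 against windows 1000 bp to one side, 10.3 in gaps under 100 kb and 14.6 to 14.9 without a replicate. The differences in remote share ranged from -7.57 to -3.18 points and in median log2 relative signal to other peaks from -0.12 to -0.04, with no change of sign. The cause of these changes was not tested except where the setting itself removes regions. No read counts are in the lists, so what depth limits cannot be given. No paired analysis was possible because there is only 1 group.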
